A study of Homo sapiens with 4 samples.

Results

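Feedback inhibitors of mitogen-activated protein kinase (MAPK) signalling were examined in MV4-11 cells after knockdown of the transcription factor IRF1. The set was fixed by name: the dual-specificity phosphatases DUSP1, DUSP2, DUSP4, DUSP5, DUSP6 and DUSP10, the Sprouty genes SPRY2 and SPRY4, and the Sprouty-related genes SPRED1 and SPRED2. Of these 10 genes, 9 were among the 23622 analysed, which are listed by Ensembl identifier, and SPRED1 was not analysed here. Of the 9, 8 passed the filter on low values (at least 10 normalized counts in at least 2 libraries) that left 14120 genes for testing.

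MV4-11 is an established human acute myeloid leukemia (AML) cell line that carries a KMT2A rearrangement and an internal tandem duplication in the receptor FLT3. Total RNA was sequenced from 2 sh-NC libraries, which the labels call cells without treatment, and from 2 sh-IRF1 libraries, which carry an IRF1 knockdown. All 4 libraries come from the same line with the genotype given as WT, and per the study's methods hairpins were delivered by lentivirus in the pLKO.1 vector. Which of the 2 IRF1 hairpins was used in which library is not given in the sources used here. The libraries are not stated to come from separate cultures or infections, so p-values measure only the spread between these samples, which may be technical.

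In MAPK signalling, receptors activate RAS, which passes the signal through RAF and MEK kinases to ERK, and parallel branches lead to JNK and p38. Active ERK drives transcription of its own inhibitors: DUSP proteins remove the activating phosphates from MAP kinases, and Sprouty and SPRED proteins restrain the pathway upstream of RAF. In leukemias with a mutated FLT3 receptor this cascade is driven from the cell surface, and transcripts such as DUSP6 and SPRY2 are widely used as a readout of ERK output.

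Knockdown of IRF1 was accompanied by lower levels of DUSP6, the cytoplasmic ERK phosphatase, to 35.4% of control, and of SPRY2, the main Sprouty transcript in these cells, to 62.8% of control. Both called changes beyond 0.5 on the log2 scale were decreases, and no analysed member rose by that much. Among all genes tested 7.56% were called lower and 8.27% higher beyond 0.5. DUSP2 and DUSP4, nuclear phosphatases, fell by less, and DUSP10, which acts on JNK and p38, rose slightly. The calls of DUSP2, DUSP4 and DUSP10 were each lost under some of the alternative fits given below. The values of DUSP1, DUSP5 and SPRED2 did not pass the test.

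The sequences bearing on these results are the hairpins that lowered IRF1 and the promoters of 3 members that behaved differently. The hairpin targets, as listed by the study, were found in the canonical IRF1 transcript (GENCODE) from base 848 and base 926. Capitals mark the 7 bases that would pair with bases 2 to 8 (the seed) of a guide strand complementary to the whole target, a strand and end taken as an assumption.
sh-IRF1#1: gcaccagtgatctGTACAACt
sh-IRF1#2: ggaaattacctgaGGACATCa
The capital letters of the first occurred in the 3′ untranslated region of 5.08% of 11305 tested genes and those of the second in 7.16%. Neither occurred in that region of any of the 8 tested members, nor in those of DUSP7, DUSP8 and DUSP16. SPRY3 held 1 match to the second.

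The promoters shown are those of DUSP6 and SPRY2, the members with the largest decreases, and DUSP1, whose groups overlapped. They are RefSeq windows on GRCh38.p14 from 250 bases before to 50 bases after the start, written along the minus strand at chr12:89352452-89352751 for DUSP6, chr13:80341077-80341376 for SPRY2 and chr5:172771146-172771445 for DUSP1. Capitals mark matches, on either strand, to the letters TGACGTCA (the cAMP response element, CRE), to its shorter core TGACG, which every CRE match also contains, and to CCGGAA (an ETS core).
DUSP6: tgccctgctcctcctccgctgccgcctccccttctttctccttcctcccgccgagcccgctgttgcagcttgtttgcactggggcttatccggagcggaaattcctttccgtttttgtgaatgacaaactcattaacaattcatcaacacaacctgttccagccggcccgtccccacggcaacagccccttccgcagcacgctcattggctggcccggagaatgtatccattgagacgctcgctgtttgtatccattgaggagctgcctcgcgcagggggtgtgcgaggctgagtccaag
SPRY2: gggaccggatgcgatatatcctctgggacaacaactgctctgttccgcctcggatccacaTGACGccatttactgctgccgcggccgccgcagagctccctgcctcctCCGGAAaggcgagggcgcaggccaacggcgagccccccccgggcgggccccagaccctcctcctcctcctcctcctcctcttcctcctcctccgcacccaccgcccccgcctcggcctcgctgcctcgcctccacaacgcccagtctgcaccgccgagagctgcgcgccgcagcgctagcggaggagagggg
DUSP1: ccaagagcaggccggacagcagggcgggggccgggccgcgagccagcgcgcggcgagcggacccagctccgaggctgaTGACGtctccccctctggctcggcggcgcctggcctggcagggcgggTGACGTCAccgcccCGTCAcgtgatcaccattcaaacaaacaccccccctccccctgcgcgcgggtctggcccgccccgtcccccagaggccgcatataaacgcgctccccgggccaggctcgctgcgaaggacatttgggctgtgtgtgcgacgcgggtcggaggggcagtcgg
Windows of 8 members were searched, and those of DUSP4 and DUSP5 were not used here. The other patterns searched, an IRF element (GAAA, any 2 bases, GAAA) and the AP-1 letters TGACTCA, were found in none of the 8 windows. Over 35116 human promoters of the same length the IRF element occurred in 3.57%, AP-1 in 4.95%, CRE in 1.85%, the CRE core in 24.6% and the ETS core in 17.2%. DUSP6, DUSP2, DUSP10 and SPRED1 held none of these letters. SPRY2 held 1 ETS core 142 bases before the start and 1 CRE core 190 bases before it. DUSP1 held a CRE 125 bases before the start, within 4 matches to the core. SPRY4 and SPRED2 each held 1 CRE core. That of SPRED2 lay after the start, and the SPRY4 window was set on a start 774 bases from that of its canonical transcript. A match is a description of letters in this window, and a window without one says nothing about binding elsewhere.

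The values are read counts per gene divided by 1 size factor per library, called normalized counts below. Recovered reads per library lay between 17635908 and 18695337. In normalized counts IRF1 itself stood at 785 and 738 (sh-NC) and at 429.7 and 432 (sh-IRF1). This was a log2 fold change of -0.82 (SE 0.0904) that left 56.6% of control. Genes on the opposite strand share 22.9% of the exonic bases of IRF1, and whether the counting used strand is not stated. All 10 myeloid markers passed the filter, with a summed level of 36295 and 36303 in sh-NC and 32693 and 32903 in sh-IRF1. FLT3 alone went from 17391 and 17412 to 12745 and 12634, a larger drop than that of the sum. The sum therefore does not show a general fall of these markers. Of the 10, 3 rose, LYZ among them (log2 fold change 0.85), and 4 fell, MPO among them (-1.42). Among all genes tested 20.3% rose and 21.9% fell at any fold. HOXA9, MEIS1 and PBX3, which are highly expressed in KMT2A-rearranged leukemia, did not pass the test, at log2 fold changes from -0.11 to -0.07. Of 3 B cell markers, 2 were analysed: their summed level was 84 and 112 in sh-NC against 235 and 289 in sh-IRF1, with CD79A at 50.3 and 43.1 against 190.0 and 250.2, and their part in the results was not tested. T cell, erythroid and epithelial markers were not analysed here. In bulk RNA, fewer cells of a type and less RNA per cell cannot be told apart.

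Across all genes tested with limma, 8.27% were called higher and 7.56% lower in sh-IRF1 (Benjamini-Hochberg adjusted p under 0.05 and a log2 fold change beyond 0.5). At any fold change 20.3% were higher and 21.9% lower. Of the 8 members tested, 2 were called lower beyond 0.5 (DUSP6 and SPRY2) and 0 higher, and at any fold change 4 were lower and 1 was higher by limma. No member rose beyond 0.5 with edgeR or DESeq2 either, nor at an unadjusted p under 0.05 in limma, and the member that rose at any fold, DUSP10, was called by edgeR and not by DESeq2. The 2 groups did not overlap for 6 of the 8 members, where 69.2% of all genes tested were apart in this way. The median log2 fold change was -0.17 over the 8 members and -0.0019 over all genes tested. With 2 libraries against 2, an exact permutation test of a single gene cannot go below p = 0.333, so the tests below rest on limma's spread shared across genes.

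**Figure D1:**
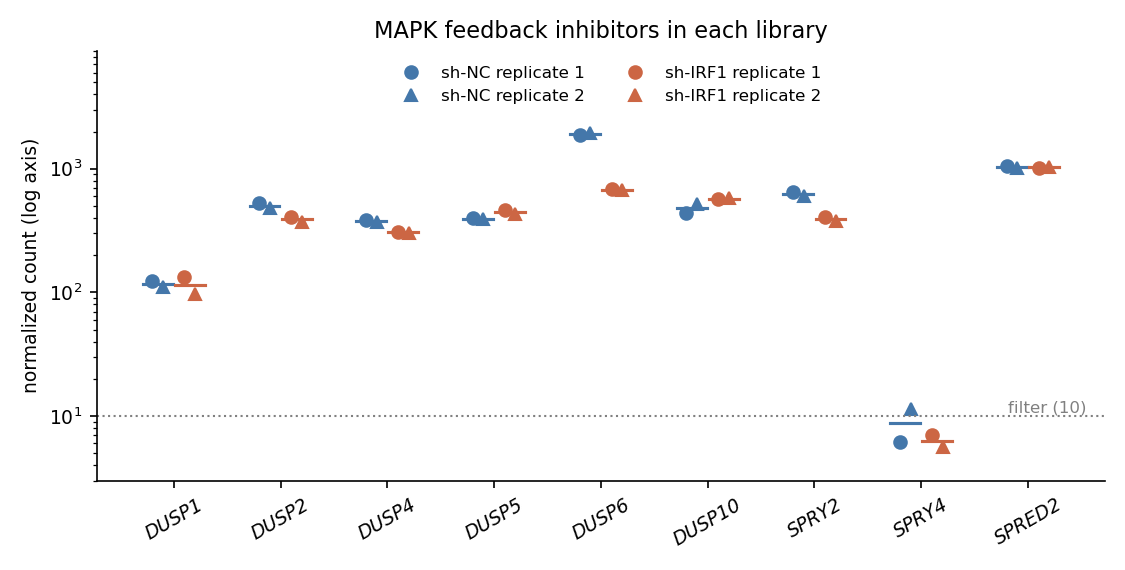
Normalized counts (log axis) of the 9 analysed members in each library, with sh-NC in blue, sh-IRF1 in orange, circles for replicate 1, triangles for replicate 2 and horizontal lines for group means. DUSP6 falls from 1859 and 1962 to 684 and 667, SPRY2 falls less, and SPRY4 lies near the filter at 10.

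Among the ERK-directed phosphatases, DUSP6 (MKP-3), which binds ERK and dephosphorylates it in the cytoplasm, showed the largest change of any member. DUSP6 was measured at 1859 and 1962 normalized counts in sh-NC and at 684 and 667 in sh-IRF1. Both knockdown libraries lay far below both controls, and the distance between groups was many times the distance within either. The log2 fold change was -1.50 (SE 0.0656, adjusted p = 5.65e-24 by limma), which placed DUSP6 at rank 28 by p among the 3092 genes lower at any fold. A gene on the opposite strand, ENSG00000274021, shares 28.6% of the exonic bases of DUSP6, and whether the counting used strand is not stated. That gene was at 21.5 and 24.7 normalized counts in sh-NC and 11.9 and 2.81 in sh-IRF1, or 1.18% of the DUSP6 level, and the sum of both stood at 35.3% of control.

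DUSP7 (MKP-X), a close relative of DUSP6 outside the set, was read beside it. It was measured at 3017 and 2950 normalized counts in sh-NC and 2146 and 1994 in sh-IRF1. The groups did not overlap, with a log2 fold change of -0.53 (SE 0.0479, adjusted p = 6.00e-13 by limma). The third cytoplasmic ERK phosphatase, DUSP9, had 4.11 normalized counts in 1 sh-NC library and was listed at 0 in the other 3, so no comparison was made.

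DUSP1, DUSP2, DUSP4 and DUSP5 are the inducible phosphatases of the nucleus. DUSP2 (PAC-1), which is prominent in hematopoietic cells, was at 527 and 481 normalized counts in sh-NC and 408 and 371 in sh-IRF1. The groups were apart, with a log2 fold change of -0.37 (SE 0.104, adjusted p = 0.00305 by limma). Without sh-NC replicate 1 the adjusted p was 0.0508, and without sh-IRF1 replicate 2 it was 0.0686. DUSP4 (MKP-2), which acts on ERK and JNK, was at 386 and 372 in sh-NC and 308 and 303 in sh-IRF1. These groups were also apart, with a log2 fold change of -0.31 (SE 0.116, adjusted p = 0.0280 by limma), but the call was lost with total-read scaling (adjusted p = 0.0611), with DESeq2 (0.0756), and without sh-NC replicate 1 (0.118), sh-IRF1 replicate 1 (0.0844) or sh-IRF1 replicate 2 (0.117).

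DUSP1 (MKP-1), an immediate early gene that acts on p38 and JNK as well as ERK, was at 123 and 111 normalized counts in sh-NC and 133 and 97.4 in sh-IRF1. The knockdown libraries lay on either side of both controls. Its log2 fold change was -0.036 (SE 0.201, adjusted p = 0.907 by limma), with a 95% interval from -0.44 to 0.37, which leaves room for a change in either direction of the size seen for DUSP4. Among the member windows searched, the DUSP1 promoter above was the only one with a full CRE.

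DUSP5, a nuclear phosphatase specific for ERK, was at 398 and 390.3 normalized counts in sh-NC and 467 and 430.1 in sh-IRF1. Both knockdown libraries were above both controls, yet the log2 fold change of 0.18 (SE 0.105, adjusted p = 0.160 by limma, 95% interval -0.028 to 0.40) did not pass the test. Its processed pseudogene DUSP5P1, a retained copy of the mRNA, was counted as a gene of its own at 95.4 and 86.3 in sh-NC and 19.9 and 29.0 in sh-IRF1 (log2 fold change -1.87, adjusted p = 1.65e-06). Reads of a gene and its copy may be split between them. The sum of both rows was 493 and 477 in sh-NC and 486 and 459 in sh-IRF1, or 97.5% of control, so the small upward difference of DUSP5 is not present in the sum.

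DUSP10 (MKP-5) dephosphorylates JNK and p38 and spares ERK. It was at 440.1 and 517 normalized counts in sh-NC and 570.0 and 575 in sh-IRF1. The 2 controls differed more from each other than the higher one did from the knockdown libraries. The log2 fold change was 0.26 (SE 0.0971, adjusted p = 0.0251 by limma), and it was 0.15 (adjusted p = 0.321) without sh-NC replicate 1. The call was also lost with DESeq2 (0.0800) and without sh-IRF1 replicate 1 (0.107) or replicate 2 (0.131).

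The other JNK and p38 phosphatases are DUSP8 and DUSP16, neither of them in the set, and both were low. DUSP8 was at 23.6 and 23.6 normalized counts in sh-NC and 51.7 and 46.8 in sh-IRF1, with a log2 fold change of 1.03 (SE 0.352, adjusted p = 0.0154 by limma). DUSP16 was at 49.2 and 38.003 in sh-NC and 73.6 and 68.4 in sh-IRF1, with a log2 fold change of 0.70 (SE 0.281, adjusted p = 0.0404). In both genes the groups were apart. A DUSP8 pseudogene, DUSP8P5, had more counts than the gene, at 37.95 and 45.2 in sh-NC and 57.7 and 68.4 in sh-IRF1. This makes the level of DUSP8 uncertain. The sum of both rows was 61.55 and 68.82 in sh-NC and 109.4 and 115.2 in sh-IRF1, or 172% of control, and was not tested. The DUSP8 call was lost with DESeq2 (adjusted p = 0.0505) and without sh-IRF1 replicate 1 (0.124) or replicate 2 (0.0729), and that of DUSP16 with no filter (0.0570), with DESeq2 (0.117), without sh-NC replicate 2 (0.202) and without either sh-IRF1 library (0.196 and 0.127). The RefSeq window of the DUSP8 promoter held 2 CRE matches, 118 and 74 bases before the start.

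**Figure D2:**
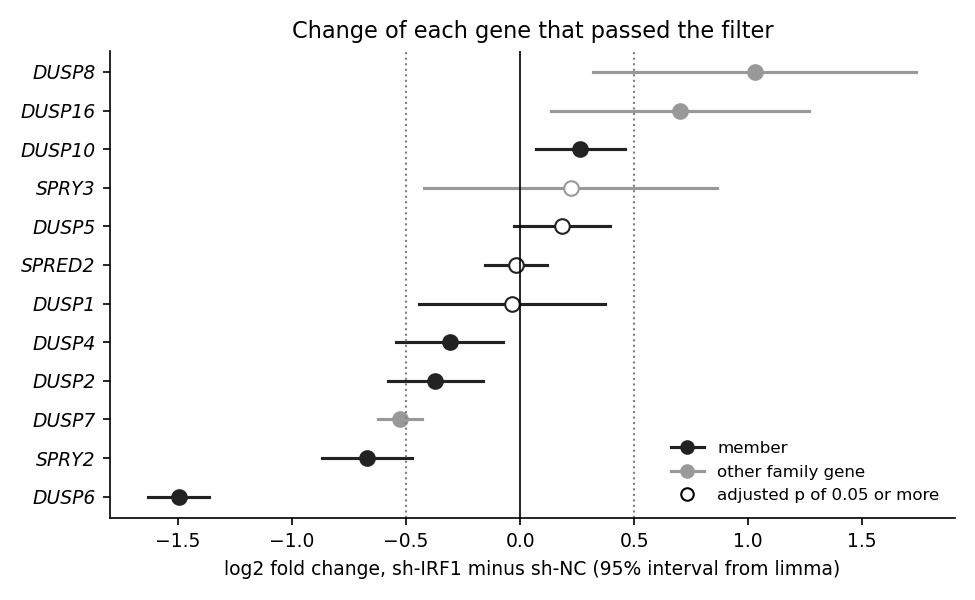
Log2 fold change, sh-IRF1 minus sh-NC, of the 8 members (black) and 4 other genes of the families (grey) that passed the filter, with 95% intervals from limma, open circles for an adjusted p of 0.05 or more and dotted lines at -0.5 and 0.5. DUSP6 lies at -1.50 with a narrow interval, while DUSP8 and DUSP16 have the widest intervals among the filled circles.

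Sprouty and SPRED proteins act above the MAP kinases. SPRY2, which is phosphorylated on receptor activation and restrains RAS and RAF, was at 645 and 605 normalized counts in sh-NC and 409 and 377 in sh-IRF1. Both knockdown libraries lay below both controls by more than the distance within either group. The log2 fold change was -0.67 (SE 0.0978, adjusted p = 1.60e-07 by limma). SPRED2, which binds neurofibromin and brings it to RAS at the membrane, was at 1055 and 1019 in sh-NC and 1013 and 1034 in sh-IRF1. Its groups overlapped, and the log2 fold change of -0.018 (SE 0.0682, adjusted p = 0.854) had a 95% interval from -0.16 to 0.12, which does not reach the size of the SPRY2 change.

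The other Sprouty and SPRED transcripts were scarce. SPRY4 was at 6.15 and 11.3 normalized counts in sh-NC and 6.96 and 5.62 in sh-IRF1, below the filter in 3 of the 4 libraries, and was not tested. SPRY3 was at 52.3 and 31.8 in sh-NC and 49.7 and 45.9 in sh-IRF1, with overlapping groups and a log2 fold change of 0.22 (SE 0.319, adjusted p = 0.616). SPRY1, at 4.10 and 2.05 against 0.99 and 0.94, and SPRED3, at 4.10 and 3.08 against 4.97 and 10.3, did not pass the filter and were not tested. Of the 7 other genes of the families, 4 were tested, of which 2 were higher and 1 was lower. At any fold 20.3% of all genes tested were higher and 21.9% lower.

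Levels were compared between genes per kilobase of exonic length, as mean ± SD with n = 2. In sh-NC, DUSP6 was the highest member at 495 ± 18.9 normalized counts per kilobase, above 87.9% of all genes tested. DUSP2 came next at 261 ± 17.1, followed by SPRY2 at 195 ± 8.86 and SPRED2 at 188 ± 4.57, whose libraries overlapped. DUSP10 at 169 ± 19.2 and DUSP5 at 155 ± 2.15 overlapped as well, and DUSP1 at 58.1 ± 4.27, DUSP4 at 52.1 ± 1.35 and SPRY4 at 1.33 ± 0.555 closed the order. In sh-IRF1, DUSP10 at 203 ± 1.33 and DUSP2 at 202 ± 13.5 led with overlapping libraries. SPRED2 at 186 ± 2.80, DUSP5 at 177 ± 10.2 and DUSP6 at 175 ± 3.16 followed, with DUSP5 overlapping each of the other two. SPRY2 stood at 122 ± 7.08, DUSP1 at 57.3 ± 12.6, DUSP4 at 42.0 ± 0.556 and SPRY4 at 0.960 ± 0.145. DUSP6, the highest member in sh-NC, was thus not resolved from DUSP5 in sh-IRF1, and the level of DUSP5 is itself uncertain because of its pseudogene.

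The 10 classical MAP kinase phosphatases can be read in 3 textbook classes, a grouping made after the values were seen and given as a description. The cytoplasmic ERK class (DUSP6, DUSP7 and DUSP9) summed to 1014 and 1030 normalized counts per kilobase in sh-NC and 556 and 525 in sh-IRF1. Its share of all classical phosphatase transcripts was 58.8% and 59.5% in sh-NC against 43.3% and 43.7% in sh-IRF1. DUSP6 alone accounted for 27.9% and 29.3% in sh-NC and 13.8% and 14.4% in sh-IRF1, while DUSP7 had a share between 29.3% and 30.8% in every library. The nuclear inducible class summed to 545 and 509 in sh-NC and 504 and 452 in sh-IRF1. The JNK and p38 class (DUSP8, DUSP10 and DUSP16) summed to 167 and 193 in sh-NC and 222 and 223 in sh-IRF1, with shares of 9.70% and 11.1% against 17.3% and 18.6%, nearly all of it DUSP10. In limma at any fold, where 20.3% of all genes tested were higher and 21.9% lower, 2 of the 2 tested genes of the cytoplasmic class fell, 2 of 4 of the nuclear class fell and 3 of 3 of the JNK and p38 class rose. With DESeq2 0 of these 3 passed the test (adjusted p = 0.0800 for DUSP10, 0.0505 for DUSP8 and 0.117 for DUSP16), nor did any of them without sh-IRF1 replicate 1 (0.107, 0.124 and 0.196) or replicate 2 (0.131, 0.0729 and 0.127), and of the nuclear class DUSP4 was lost with DESeq2 (0.0756). The total over the 3 classes was 1726 and 1732 in sh-NC and 1282 and 1199 in sh-IRF1.

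**Figure D3:**
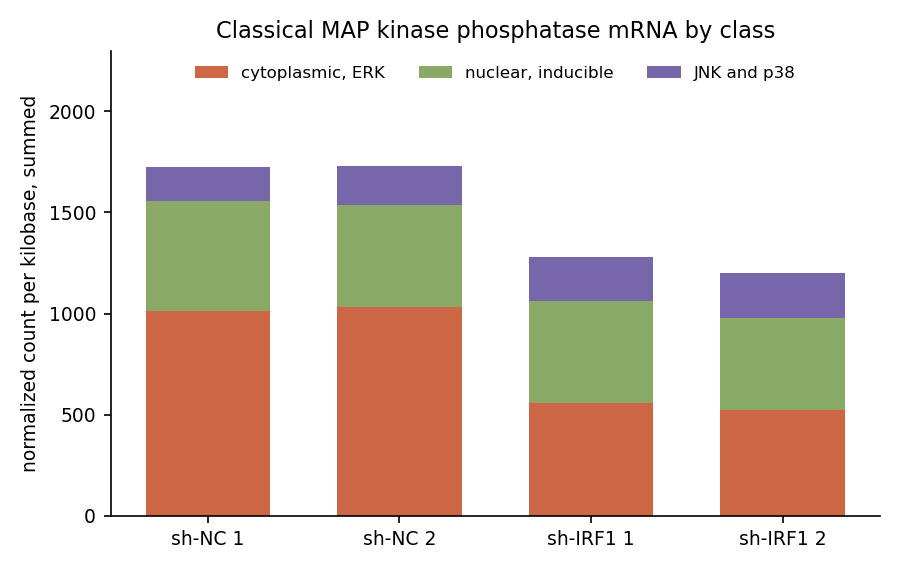
Summed normalized counts per kilobase of exonic length of the classical MAP kinase phosphatases in each library, stacked by class. The cytoplasmic ERK class drops from 1014 and 1030 to 556 and 525, and the JNK and p38 class stands at 167 and 193 in sh-NC and 222 and 223 in sh-IRF1.

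Genes known to be transcribed downstream of ERK were read beside the members, since DUSP6 and SPRY2 belong to the same output. Of 10 such genes 8 were analysed and tested. By limma 4 were lower and 1 was higher, all beyond 0.5, where 7.56% of all genes tested were lower and 8.27% higher. The median log2 fold change was -0.36. EGR1, an immediate early transcription factor, fell from 3080 and 3174 normalized counts to 1355 and 1329 (log2 fold change -1.22, SE 0.0505, adjusted p = 6.70e-25). ETV5, an ETS factor induced by ERK, fell from 1065 and 1104 to 539 and 501 (log2 fold change -1.06, SE 0.0797, adjusted p = 1.61e-15). PHLDA1 moved the opposite way, from 167 and 174 to 366 and 456 (log2 fold change 1.26, SE 0.135, adjusted p = 8.83e-11). IER2 (-0.52) and CCND1 (-1.04) were the others that fell, named after their values were seen, and CCND1 had at most 40.0 normalized counts in any library. IER2 shares 52.2% of its exonic bases with genes on the opposite strand. ETV4, the closest relative of ETV5 in this list and likewise named after its values were seen, did not pass the test, at 732 and 813 in sh-NC and 838 and 883 in sh-IRF1.

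The components that carry the signal had log2 fold changes between -0.60 and 0.24. Of 17 genes from adaptors to ERK, all tested, 7 were lower and 2 higher at any fold, with a median of -0.028. Beyond 0.5, 1 was lower. Among all genes tested 21.9% were lower and 20.3% higher at any fold, and 7.56% were lower beyond 0.5. KSR1, the scaffold that holds RAF, MEK and ERK together, fell from 1433 and 1422 normalized counts to 934 and 950.1 (log2 fold change -0.60, SE 0.0644, adjusted p = 8.57e-11). MAPK3, which encodes ERK1, rose from 943 and 1028 to 1155 and 1170.3 (log2 fold change 0.24, adjusted p = 0.00352 by limma). MAP2K2, which encodes MEK2, had a log2 fold change of 0.093 (adjusted p = 0.0296 by limma). MAP2K1, which encodes MEK1, is named after its values were seen and went the other way. It was at 200 and 189 normalized counts per kilobase in sh-NC and 152 and 129 in sh-IRF1. The MAPK3 call was lost without sh-NC replicate 1 (0.0645) or sh-IRF1 replicate 2 (0.0508). That of MAP2K2 was lost with DESeq2 (0.0630), without sh-NC replicate 2 (log2 fold change 0.069, adjusted p = 0.161) and without sh-IRF1 replicate 2 (0.0536, adjusted p = 0.402).

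In the JNK and p38 branches 14 of 15 kinases were tested, with a median of -0.097. At any fold 5 were lower and 3 higher, where 21.9% of all genes tested were lower and 20.3% higher. MAP3K1, a kinase at the head of the JNK branch, fell from 1738 and 1867 normalized counts to 1229 and 1236 (log2 fold change -0.55, adjusted p = 7.64e-11), and MAPK12, a p38 kinase, fell with a log2 fold change of -0.39 (adjusted p = 4.44e-06). MAP2K7, which activates JNK, rose with a log2 fold change of 0.29 (adjusted p = 6.49e-06), and MAPK14, the main p38 kinase, with 0.16 (adjusted p = 0.0120), a call lost without sh-NC replicate 2 (0.0854) or sh-IRF1 replicate 1 (0.150). MAPK13 and MAP2K6 also passed 0.5 and are named after their values were seen: MAPK13 was at 6.15 and 3.08 against 20.9 and 16.9, and MAP2K6 at 177 and 194 against 135 and 116.

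Inhibitors of RAS and ERK signalling from other families did not move as 1 group. Of 16 such genes 15 were tested, with a median of 0.082. At any fold 3 were lower and 4 higher, and 2 of the lower ones were beyond 0.5. Over all genes tested the shares were 21.9% lower and 20.3% higher at any fold, and 7.56% lower beyond 0.5. SH2B3 (LNK), an adaptor that restrains cytokine receptor signalling in blood cells, fell from 3694 and 3636 normalized counts to 1747 and 1989 (log2 fold change -0.97, adjusted p = 1.59e-21). ERRFI1 (MIG6), a feedback inhibitor of the EGF receptor, fell from 296 and 337 to 191 and 165 (log2 fold change -0.83, adjusted p = 3.53e-06). CIC, a repressor that ERK inactivates, rose with a log2 fold change of 0.37 (adjusted p = 1.06e-10), and RASAL3, a RAS GTPase-activating protein of blood cells, with 0.20 (adjusted p = 0.00856). Without sh-NC replicate 2 the log2 fold change of RASAL3 was 0.0727 (adjusted p = 0.431), and its call was also lost without sh-IRF1 replicate 1 (0.118) or replicate 2 (0.0710).

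**Figure D4:**
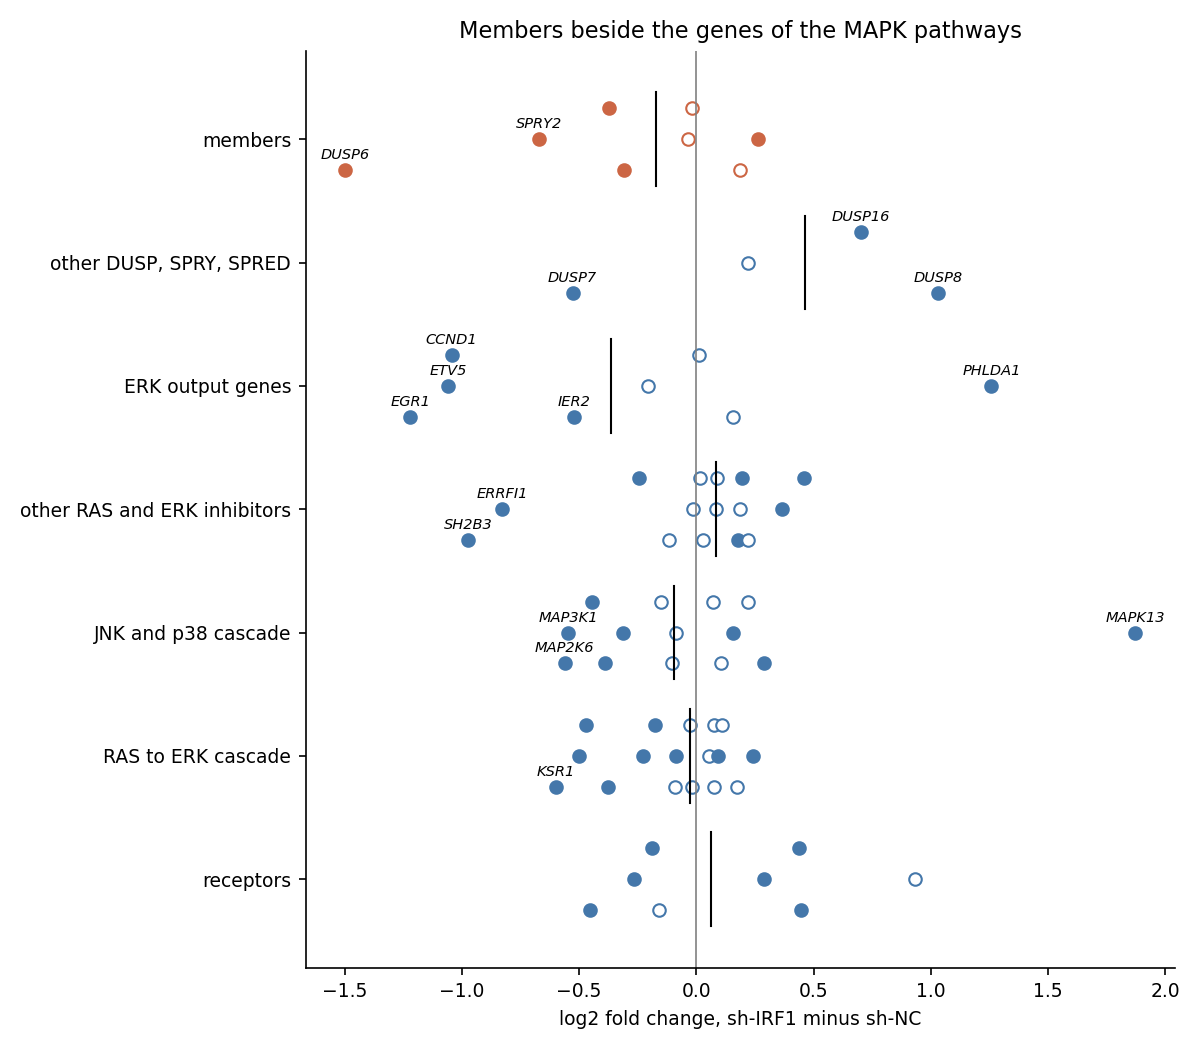
Log2 fold change, sh-IRF1 minus sh-NC, of every tested gene in the member set (orange) and the lists beside it (blue). Filled circles mark an adjusted p under 0.05, and vertical lines mark list medians. Names are given only for filled circles past 0.5 in either direction. The member and ERK output medians lie at -0.17 and -0.36, and DUSP6 lies lowest of all genes shown at -1.50.

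At the top of the cascade, all 8 growth factor receptors listed were tested. At any fold 3 were higher and 3 lower, each by less than 0.5, where 20.3% of all genes tested were higher and 21.9% lower. FLT3, the mutated receptor of this line, fell from 17391 and 17412 normalized counts to 12745 and 12634 (log2 fold change -0.46, adjusted p = 2.75e-19), and INSR, the insulin receptor, fell with a log2 fold change of -0.27. CSF3R and CSF2RA, receptors for granulocyte and granulocyte-macrophage colony-stimulating factor, each rose with a log2 fold change of 0.44. These differences stood beside those of DUSP6 and SPRY2, and their part in them was not tested.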

How the data were processed

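The deposited values are read counts per gene that the authors divided by a size factor for each library, a normalized signal. Per the labels, reads came from TruSeq libraries of total RNA, and the submitters' processing notes name HISAT2 2.0.5 and hg38. The counting program, annotation and use of strand are not given in the sources used here. Other named genes also share exonic bases with overlapping genes, among them LYZ (34.7%), MAPK12 (29.7%), HOXA9 (27.0%), DUSP12 (22.0%) and MAP2K1 (20.5%). Every value was a whole multiple of the library's value of 1 read within 0.001 of a read, so reads were recovered. Of 23622 identifiers, 23456 matched a symbol.

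The main test was limma 3.58.1 (R 4.3.3; eBayes with trend and robust) on log2(value + 1), which understates changes of low genes, over the 14120 genes that reached 10 normalized counts in 2 or more libraries, with Benjamini-Hochberg adjustment. Fold changes, SE and 95% intervals come from this fit. edgeR 4.0.16 (quasi-likelihood) and DESeq2 1.42.0 on the recovered reads, other scalings, filters, pseudocounts, a replicate block and leaving out each library were alternatives. Tested on simulated data for this comparison with 14046 genes, limma recovered 89.2% of genes changed by 0.5 and 100% of those changed by 1 on the log2 scale. The changed genes were drawn only from those with a mean of at least 100 reads, with the same dispersion for every gene. This recovery therefore does not cover low genes such as DUSP8, DUSP16 and SPRY3. Replicates differed by more than sampling noise (chi-square per gene 2.93 in sh-NC and 2.47 in sh-IRF1).

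Named were all members, the other genes of their families, IRF1, and from each other list up to 2 higher and 2 lower genes with the smallest p among those past the test, 1 of which is not reported here; others are marked. Members and lists were chosen with earlier results of these data known, so list counts are descriptions. Exonic lengths, transcripts and overlaps came from GENCODE on GRCh38, and promoters from RefSeq. Protein features were not analysed here.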

Additional observations from a re-analysis of the deposited data

How the results depend on the processing

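DUSP6 (log2 fold change -1.54 to -1.45), SPRY2 (-0.73 to -0.61) and DUSP7 (-0.58 to -0.48) kept their direction and passed the test under all 15 alternatives that refit them. DUSP5 passed it under none (0.13 to 0.24). With a log2 fold change beyond 1, 389 genes were higher, 318 lower and 1 member (DUSP6) lower. Members higher at any fold change numbered 0 with DESeq2 and 0 to 1 when each library was left out; members lower numbered 2 to 4. The sign turned for genes that never passed the test: DUSP1 stood at 0.00846 with total reads, 0.0388 without sh-NC replicate 1 and 0.19 without sh-IRF1 replicate 2, SPRED2 at 0.0261 with total reads and 0.00643 without sh-NC replicate 1, and SPRY3 at -0.13 without sh-NC replicate 2. With each library left out, DUSP1 ranged from -0.26 to 0.19, SPRED2 from -0.0431 to 0.00643 and SPRY3 from -0.13 to 0.57. The cause was not tested. Replicate numbers were not shown to pair the libraries (correlation of deviations -0.0154), and with a replicate block 1174 genes were higher and 1066 lower, with no change in any member's call. Total-read scaling moved the median of all genes to 0.0423 and gave 1375 higher and 878 lower. Leaving out a library leaves a lone sample assumed to vary like the other group. Low read counts limit DUSP8, DUSP16 and SPRY3, and SPRY4 could not be tested.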

Other observations

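The atypical dual-specificity phosphatases, which lack the MAP kinase binding domain of the classical ones, were read apart from the members. Of 14 listed, 10 were analysed and 9 tested, with a median log2 fold change of 0.091. At any fold 3 were higher and 1 was lower, where 20.3% of all genes tested were higher and 21.9% lower. DUSP3 (VHR), which can dephosphorylate ERK and JNK, was at 2729 and 2700 normalized counts in sh-NC and 4284 and 4170 in sh-IRF1, higher in both knockdown libraries (log2 fold change 0.64, SE 0.0417, adjusted p = 1.20e-17 by limma). Per kilobase of exonic length DUSP3 stood at 543 ± 4.01 in sh-NC and 846 ± 16.1 in sh-IRF1 (mean ± SD, n = 2), so in sh-NC it was near the level of DUSP6 and in sh-IRF1 well above it. DUSP23 rose with a log2 fold change of 0.37 (adjusted p = 0.00845), a call lost without sh-NC replicate 2 (0.0610) or sh-IRF1 replicate 2 (0.117). DUSP12 fell from 381 and 429 normalized counts to 264 and 294 (log2 fold change -0.54, adjusted p = 2.32e-04).

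The pentamer ATTTA, a part of many elements that shorten the life of an mRNA, was counted in the 3′ untranslated region of canonical transcripts, a count added after the values were seen. DUSP1 held 4 in 666 bases, or 6.01 per kilobase, and DUSP2 held 3, or 4.59 per kilobase, against a median of 1.71 per kilobase over 11305 tested genes. SPRY2 held 2, or 2.56 per kilobase. DUSP6, with the largest decrease, held 1 in 2019 bases, or 0.495 per kilobase, and DUSP5 and DUSP7 held 0. Among the other tested members, DUSP10 held 3.04, SPRED2 1.89 and DUSP4 1.51 per kilobase.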
